A study of Homo sapiens with 9 samples.

Results

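HCCLM3 cells given quercetin at 50 µM were compared with HCCLM3 cells given the vehicle DMSO. HCCLM3 is a cultured liver cancer line of human origin, bred for its strong tendency to metastasize, and every sample is labelled as wild type. The samples were chosen by their labelled treatment, 3 libraries for each group and 6 of the 9 in the series. The submitters ask how quercetin acts on this cancer, and the title points to IGFBP3, which carries insulin-like growth factors outside the cell. No source used here gives the duration of the treatment. The labels do not tell whether replicates are separate cultures, so a p-value reflects the spread of these samples alone, and that spread may be technical.

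Quercetin is a plant flavonol that liver cells conjugate by glucuronidation, sulfation and methylation and export through ABC transporters. Flavonols are among the ligands of the aryl hydrocarbon receptor (AhR), a transcription factor that pairs with ARNT, binds DNA at the core GCGTG and drives CYP1A1, CYP1B1 and its own repressors TIPARP and AHRR. ARNT is also the partner of the hypoxia-inducible factors HIF1A and EPAS1, which bind the core ACGTG and drive genes of glycolysis, pH control and mitophagy. The sterol regulatory factors SREBF1 and SREBF2 drive fatty acid and cholesterol synthesis, and the hepatocyte factor HNF4A maintains the genes of plasma proteins.

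The 6 libraries held 20061136 to 21436328 estimated counts, so depth differed little between them. Levels are given as CPM, counts relative to the TMM-scaled library size, and a gene is said to rise or fall only where edgeR's quasi-likelihood test gave an adjusted p under 0.05 across all 12609 genes tested. Differences are log2 values of quercetin minus control, given as the estimate ± its standard error, with n = 3 per group. The labelled cell type was checked against markers. Of 13 hepatocyte or liver carcinoma markers in the table, 9 had a mean of at least 1 TPM (transcripts scaled for length and depth). Their summed level was 174 to 199 TPM in the controls and 216 to 229 TPM at 50 µM. ALB and APOB were low for a hepatocyte, with at most 9.57 and 1.37 TPM in any library. The biliary markers SPP1 and KRT19 were abundant in all 6 libraries, at 1037 to 1272 and 495 to 559.7 TPM, but EPCAM was at 0.27 to 0.69 TPM. Of 7 fibroblast or stellate markers only LUM (54.7 to 84.2 TPM) and DCN had a mean of at least 1 TPM. Of 6 macrophage markers only CD68 (162 to 256 TPM) did. The rest of these lists reached at most 0.31 TPM (RGS5) and 1.34 TPM (PTPRC) in any library. CD3D and ERG were at 0 in every library. The 6 endothelial markers summed to 19.9 to 22.4 TPM in the controls and 10.3 to 12.2 TPM at 50 µM, nearly all of it PECAM1 and KDR. PECAM1 (log2 difference -0.80 ± 0.08, edgeR adjusted p = 0.00092) and KDR (log2 difference -1.08 ± 0.14, edgeR adjusted p = 0.0018) fell, and the part of other cells in the results was not tested. In bulk libraries fewer cells of a type and less RNA per cell cannot be told apart.

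Control replicate 1 lay between the groups on the first principal component and apart from both on the second. On the first, which held 68.1% of the variance, control replicates 2 and 3 were at -35.3 and -36.6. The quercetin libraries were at 22.4 to 26.2 and control replicate 1 at -0.56. On the second (11.9%) control replicate 1 was at 24.6 and all other libraries at -7.5 to -0.12. Over 7456 genes called when control replicate 1 was left out, its median place was 0.57 of the way from the other controls (0) to quercetin at 50 µM (1). Without it, 3726 genes were higher and 3758 lower (58.9% of genes in all), against 1996 and 2273 with it. Of the genes called with it, 1992 of the 1996 higher and 2271 of the 2273 lower were also called without it, in the same direction. The labels give no reason for its place, and its cause was not tested. Every result below includes it, and the value without it is given where it moved a fold by more than 1.5 times or changed a call. Where a call was lost when 1 library was left out, that library is named with the highest adjusted p of such edgeR fits, and the other 5 are the libraries apart from control replicate 1.

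**Figure D1:**
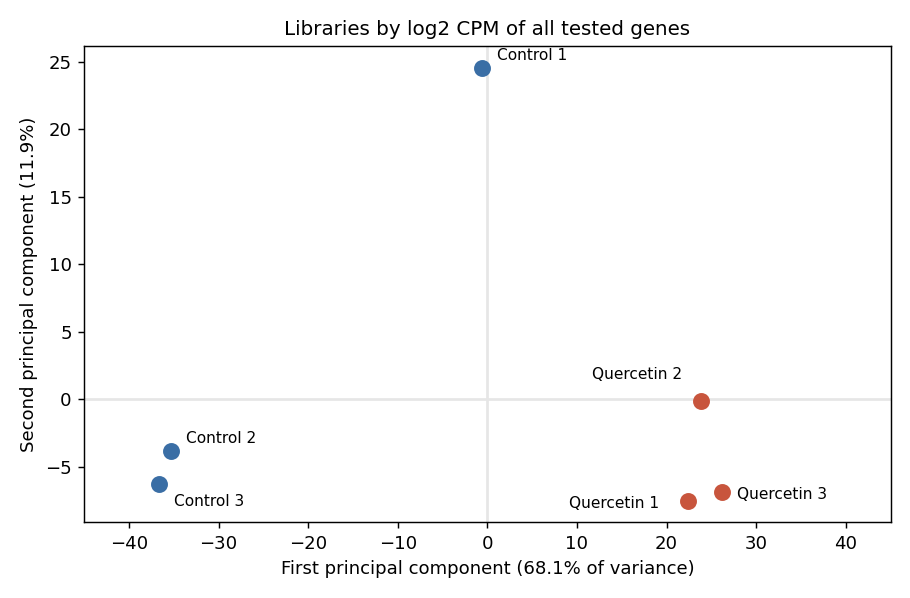
The 6 libraries on the first 2 principal components of log2 CPM over all tested genes, controls in blue and quercetin 50 µM in red. Control replicate 1 sits at -0.56 on the first component, between the other controls (-35.3 and -36.6) and the quercetin libraries (22.4 to 26.2). On the second it sits at 24.6, apart from all other libraries (-7.5 to -0.12).

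Quercetin at 50 µM changed many genes by a modest amount. Of 12609 genes tested, 1996 (15.8%) were higher and 2273 (18.0%) lower, and the median size of a called difference was 1.34-fold. At least 2-fold differences were found in 189 of the higher and 196 of the lower genes, and at least 4-fold in 31 and 21. In 49.5% of all tested genes the groups did not overlap, as in 1976 of the called higher and 2231 of the called lower genes. Where a lack of overlap is given below, it therefore describes the values and adds little to a call. Calls that held when any 1 of the 6 libraries was left out numbered 609 higher and 818 lower. These shares are the background for the gene groups below: a group with about 15.8% of its members higher and 18.0% lower is like all genes, whose median log2 difference was 0.00. Counts of a group without control replicate 1 are to be read against 29.3% higher and 29.6% lower.

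**Figure D2:**
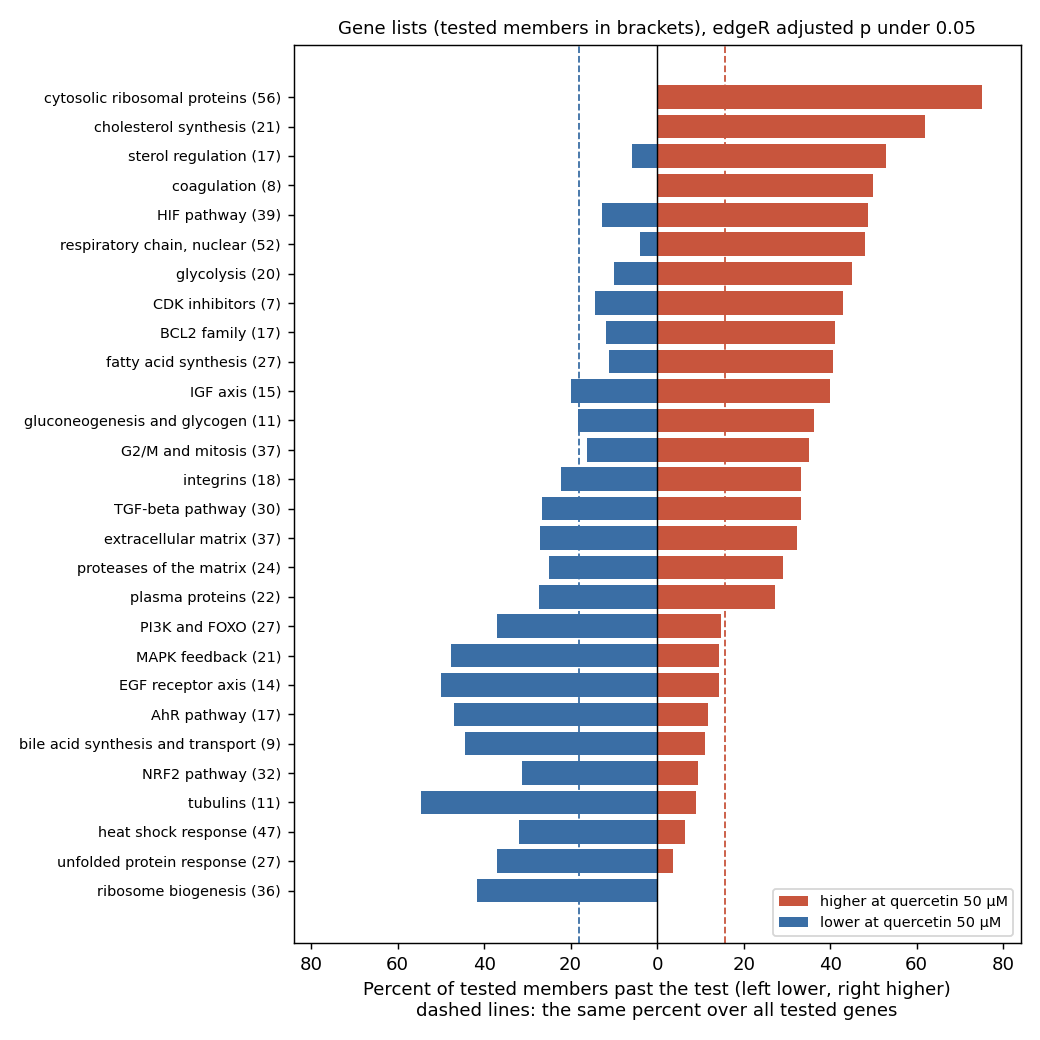
Percent of tested members higher (red, right) and lower (blue, left) at quercetin 50 µM for 28 gene lists, with the number tested in brackets and dashed lines at the 15.8% and 18.0% of all tested genes. Ribosomal proteins and cholesterol synthesis stand farthest to the right, and tubulins and EGF receptor genes farthest to the left.

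IGFBP3 rose. Located at chr7:45912245-45921272, it measured 10.3, 8.43 and 8.17 CPM in the controls and 18.8, 13.9 and 15.1 CPM at 50 µM, 1.77-fold higher (log2 difference 0.82 ± 0.14, edgeR adjusted p = 0.0049), and the call held in each of the 6 omissions. Control replicate 1 was the highest control and below every quercetin library. IGFBP2 rose more, from 27.7, 18.4 and 15.7 to 61.0, 55.2 and 62.2 CPM (log2 difference 1.52 ± 0.19, edgeR adjusted p = 0.0024). IGFBP1 fell from 65.4, 138 and 117 to 47.0, 39.1 and 39.6 CPM (log2 difference -1.35 ± 0.27, edgeR adjusted p = 0.012). IGFBP4 (-0.27 ± 0.10) and IGFBP6 (-0.21 ± 0.14) had edgeR adjusted p = 0.064 and 0.28, and IGFBP4 passed without control replicate 1 (-0.15, edgeR adjusted p = 0.027) or control replicate 3. IGFBP5 was at 0 in control replicates 2 and 3 and at 0.785 CPM in control replicate 1, against 1.31 to 2.76 CPM at 50 µM (edgeR adjusted p = 0.044), and no fold is given for a gene this low. The ligand gene IGF2 was also near the lower limit (0.785, 0.142 and 0.255 against 1.25, 1.45 and 1.03 CPM; log2 difference 1.63 ± 0.49, edgeR adjusted p = 0.033; 2.62 without control replicate 1). The call of IGF2 was lost without any 1 of the other 5 (adjusted p up to 0.11), and that of IGFBP5 without any 1 of the other 5 (adjusted p up to 0.13). TMEM219, a receptor of IGFBP3, rose 1.23-fold (log2 difference 0.30 ± 0.09, edgeR adjusted p = 0.029), a call lost without any 1 of the other 5 (adjusted p up to 0.12). The insulin receptor gene INSR fell from 26.5, 32.9 and 33.0 to 18.0, 19.4 and 18.0 CPM (log2 difference -0.74 ± 0.10, edgeR adjusted p = 0.0024). IGF1R differed by -0.13 ± 0.07 (edgeR adjusted p = 0.15). Across the 15 tested genes of the axis 6 rose and 3 fell (without control replicate 1, 7 higher and 6 lower).

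Genes of insulin, PI3K and FOXO signalling fell in 10 of 27 and rose in 4 (without control replicate 1, 11 lower and 9 higher). With the trend by transcript length described below removed, 9 were lower and 6 higher. RICTOR (-0.56 ± 0.08), PIK3CB (-0.41 ± 0.08) and FOXO3 (-0.43 ± 0.08) fell at edgeR adjusted p = 0.0024, 0.0062 and 0.0066 in every omission. MTOR fell 1.31-fold, RPTOR 1.49-fold, PIK3R1 1.37-fold and TSC1 1.36-fold (edgeR adjusted p = 0.012, 0.013, 0.0096 and 0.013), with calls lost without quercetin replicate 1 or 3 (adjusted p up to 0.061), without quercetin replicate 1 or 3 (adjusted p up to 0.059), without quercetin replicate 3 (adjusted p up to 0.053) and without control replicate 3, or quercetin replicate 1 or 3 (adjusted p up to 0.064). IRS1 (0.27 ± 0.07), AKT1 (0.23 ± 0.06) and the FOXO target CCNG2 (0.79 ± 0.18) rose at edgeR adjusted p = 0.022, 0.019 and 0.013, and were lost without any 1 of the other 5 (adjusted p up to 0.09), without control replicate 2, or quercetin replicate 1 or 3 (adjusted p up to 0.085) and without control replicate 2 or quercetin replicate 3 (adjusted p up to 0.057).

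CYP1A1 had the largest fall of the genes named here. It encodes the detoxifying monooxygenase that is the classical AhR target, lies at chr15:74719542-74725528 of GRCh38 as the authors' table gives it, and measured 4.43, 42.5 and 47.9 CPM in the controls and 0.964, 0.653 and 0.609 CPM at 50 µM. Control replicate 1 was far below the other controls and still above every quercetin library, so the groups did not overlap. CYP1A1 was 42.2-fold lower (log2 difference -5.40 ± 1.08, edgeR adjusted p = 0.014), a call lost without control replicate 2 (adjusted p up to 0.054) and with no filter on low counts (adjusted p = 0.054). CYP1B1 (chr2:38066973-38095392), the second member of the family, measured 92.1, 259 and 257 CPM in the controls and 48.1, 34.6 and 34.8 CPM at 50 µM and was 5.18-fold lower (log2 difference -2.37 ± 0.42, edgeR adjusted p = 0.0099). TIPARP, an ADP-ribosyltransferase that AhR induces and that restrains AhR, measured 78.1, 168 and 185 CPM in the controls and 70.5, 62.8 and 59.0 CPM at 50 µM. It was 2.24-fold lower (log2 difference -1.16 ± 0.31, edgeR adjusted p = 0.033), and here control replicate 1 was nearer to the quercetin libraries than to the other controls, with the call lost without control replicate 2 or 3, or quercetin replicate 2 or 3 (adjusted p up to 0.13) and with no filter on low counts (adjusted p = 0.099). The repressor AHRR was 1.59-fold lower at low levels (2.49, 3.12 and 3.06 against 1.83, 1.54 and 2.06 CPM; log2 difference -0.67 ± 0.21, edgeR adjusted p = 0.034), a call lost without any 1 of the other 5 (adjusted p up to 0.12).

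The transcript of the receptor itself did not pass the test. AHR measured 111, 88.2 and 83.0 CPM in the controls and 106, 114 and 99.3 CPM at 50 µM (log2 difference 0.17 ± 0.11, edgeR adjusted p = 0.25) and was higher when control replicate 1 was left out (0.31, edgeR adjusted p = 0.00012). ARNT differed by -0.07 ± 0.06 (edgeR adjusted p = 0.39), and the chaperone partner PTGES3 by -0.14 ± 0.06 (-0.15 without control replicate 1, edgeR adjusted p = 0.017). Of 17 tested AhR genes 2 were higher and 8 lower, with a median log2 difference of -0.20 (without control replicate 1, 4 higher and 10 lower). Among the target enzymes 4 of 6 fell and 1 rose. ALDH3A1, an aldehyde dehydrogenase, fell 1.40-fold (log2 difference -0.49 ± 0.09, edgeR adjusted p = 0.0062), and NQO1, which NRF2 also drives, was level (0.03 ± 0.07, edgeR adjusted p = 0.78). UGT1A6 rose 1.64-fold (log2 difference 0.72 ± 0.12, edgeR adjusted p = 0.0053). The amino acid transporter gene SLC7A5 fell from 407, 752 and 691 to 279, 313 and 288 CPM (log2 difference -1.07 ± 0.21, edgeR adjusted p = 0.01). LPCAT2, an enzyme of lipid mediator synthesis, fell 1.41-fold (log2 difference -0.50 ± 0.10, edgeR adjusted p = 0.0085). NFE2L2 (-0.20 ± 0.10, edgeR adjusted p = 0.12) and HES1 (0.45 ± 0.20, edgeR adjusted p = 0.12) missed the threshold and passed it without control replicate 1, at -0.31 and 0.75 (edgeR adjusted p = 3.6e-05 and 5.8e-09).

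The sequences before the starts of CYP1A1, which had the largest fall of the AhR targets, and of TIPARP, which encodes a repressor of the receptor, are shown to locate the AhR core. They are the 250 bases before the annotated start from RefSeq (GRCh38.p14), 5′ to 3′ on the gene's strand, and RefSeq starts can differ from those of the authors' table. Capitals mark GCGTG or its reverse complement CACGC. CYP1A1 lies on the minus strand at chr15:74725529-74725778 and has 1 match, 57 bases before the start. TIPARP lies on the plus strand at chr3:156674340-156674589 and has 2 matches, 208 and 142 bases before the start, in the window with the most matches of its 3.
CYP1A1: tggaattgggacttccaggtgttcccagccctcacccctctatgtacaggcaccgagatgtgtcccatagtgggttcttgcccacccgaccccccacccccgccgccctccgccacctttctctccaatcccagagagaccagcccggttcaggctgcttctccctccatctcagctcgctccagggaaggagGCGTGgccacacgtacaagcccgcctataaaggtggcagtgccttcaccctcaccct
TIPARP: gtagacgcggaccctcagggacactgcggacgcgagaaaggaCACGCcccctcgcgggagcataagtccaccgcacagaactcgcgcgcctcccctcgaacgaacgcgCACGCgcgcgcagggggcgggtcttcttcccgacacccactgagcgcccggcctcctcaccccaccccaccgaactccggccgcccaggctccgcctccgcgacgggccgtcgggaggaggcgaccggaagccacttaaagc
Of the 7 AhR targets that fell, 4 had a window in the table (CYP1A1, TIPARP, EREG and SLC7A5), and all 4 held GCGTG on either strand of at least 1 window. Among all 10215 tested genes with a window 53.1% did, so the short core is common, and a match is a description of the letters only.

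Genes that conjugate and export quercetin changed in both directions. Of 13 tested, 3 were higher and 3 lower (without control replicate 1, 6 higher and 5 lower). The glucuronosyltransferase gene UGT1A9 rose from 22.6, 15.0 and 13.5 to 40.0, 43.4 and 40.0 CPM (log2 difference 1.27 ± 0.17, edgeR adjusted p = 0.0029). UGT1A1 fell from 11.4, 14.2 and 17.2 to 6.94, 5.74 and 5.43 CPM (log2 difference -1.24 ± 0.17, edgeR adjusted p = 0.0024). UGT1A8 rose 1.37-fold (log2 difference 0.45 ± 0.13, edgeR adjusted p = 0.033), a call lost without any 1 of the other 5 (adjusted p up to 0.1), and UGT1A3 differed by 0.37 ± 0.16 (edgeR adjusted p = 0.097). The UGT1A genes share their last exons, so the authors' estimates split shared reads between them and the single values are uncertain. UGT2B7, of a family of similar genes, fell 1.25-fold (log2 difference -0.32 ± 0.08, edgeR adjusted p = 0.014), a call lost without control replicate 2 or 3, or quercetin replicate 2 or 3 (adjusted p up to 0.067). The sulfotransferase SULT1A1 (0.34 ± 0.27, edgeR adjusted p = 0.34) did not pass, and passed without control replicate 1 at 0.78. Of the 5 exporters, ABCC2 fell (log2 difference -0.21 ± 0.06, edgeR adjusted p = 0.031), a call lost without any 1 of the other 5 (adjusted p up to 0.13). ABCG2 (-0.49 ± 0.19), ABCC1 (-0.19 ± 0.10) and ABCC3 (0.41 ± 0.14) had edgeR adjusted p = 0.08, 0.15 and 0.057, and without control replicate 1 they passed at -0.70, -0.29 and 0.61. ABCB1, the P-glycoprotein gene, differed by 0.15 ± 0.14 (edgeR adjusted p = 0.42).

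Most genes of cholesterol synthesis rose. Of 21 tested enzymes 13 were higher and none lower, with a median log2 difference of 0.41, against 15.8% higher among all genes. Without control replicate 1, 14 were higher and 2 lower, both of the latter between lanosterol and cholesterol. From mevalonate to lanosterol 8 of 11 rose, and from lanosterol to cholesterol 5 of 10. LSS, which closes the sterol ring, measured 49.6, 53.8 and 50.6 CPM in the controls and 96.6, 103 and 105 CPM at 50 µM (log2 difference 0.98 ± 0.07, edgeR adjusted p = 0.00016). FDFT1, the first step committed to sterols, measured 265, 257 and 272 CPM in the controls and 456, 483 and 479.7 CPM at 50 µM (log2 difference 0.84 ± 0.06, edgeR adjusted p = 0.00016). In both genes the 3 controls were close to each other and every quercetin library was clearly above them. FDPS rose 1.75-fold, IDI1 1.61-fold, MVD 1.57-fold and DHCR7 1.56-fold, with edgeR adjusted p of 0.00068, 0.002, 0.0029 and 0.0013. HMGCS1, an early enzyme of the mevalonate part, rose 1.37-fold (log2 difference 0.46 ± 0.13, edgeR adjusted p = 0.028), a call lost without quercetin replicate 1, 2 or 3 (adjusted p up to 0.087). SQLE, squalene epoxidase, differed by 0.36 ± 0.13 (edgeR adjusted p = 0.061) and by 0.21 without control replicate 1 (edgeR adjusted p = 0.0016). In this group control replicate 1 did not lie towards quercetin: over the 16 enzymes called without it, its median place was -0.31, on the far side of the other controls.

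The regulators of this pathway rose as well. SREBF2, which drives cholesterol genes, was 1.34-fold higher (log2 difference 0.42 ± 0.07, edgeR adjusted p = 0.0052). SREBF1, which drives fatty acid genes, measured 73.1, 42.7 and 38.5 CPM in the controls and 109, 125 and 123 CPM at 50 µM (log2 difference 1.21 ± 0.23, edgeR adjusted p = 0.0096). INSIG1 and INSIG2, which hold the factors in the endoplasmic reticulum, rose 1.55-fold and 1.32-fold (edgeR adjusted p = 0.0021 and 0.0046). SCAP, their escort, fell 1.18-fold (log2 difference -0.24 ± 0.06, edgeR adjusted p = 0.022), a call lost without control replicate 2 or 3, or quercetin replicate 1 or 2 (adjusted p up to 0.086). MYLIP, a ubiquitin ligase that limits sterol uptake, rose 1.66-fold (log2 difference 0.73 ± 0.20, edgeR adjusted p = 0.024). NPC1L1, a sterol uptake gene, rose 2.19-fold (log2 difference 1.13 ± 0.35, edgeR adjusted p = 0.039). The call of MYLIP was lost without any 1 of the other 5 (adjusted p up to 0.096), and that of NPC1L1 likewise without any 1 of the other 5 (adjusted p up to 0.12), whose log2 difference was 1.75 without control replicate 1. The cholesterol exporter ABCA1 differed by 0.60 ± 0.21 (edgeR adjusted p = 0.059; 0.87 without control replicate 1, edgeR adjusted p = 1.5e-05). In all, 9 of 17 regulators and uptake genes rose and 1 fell (without control replicate 1, 10 higher and 2 lower).

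Genes of fatty acid synthesis rose more often than they fell, and CPT1A fell. Of 27 tested genes of fatty acid and glyceride synthesis 11 were higher and 3 lower (without control replicate 1, 14 higher and 6 lower). SCD, the stearoyl-CoA desaturase, measured 1244, 849 and 851 CPM in the controls and 2334, 2494 and 2338 CPM at 50 µM (log2 difference 1.28 ± 0.14, edgeR adjusted p = 0.0017). FASN, the synthase, measured 318, 314 and 282 CPM in the controls and 528, 658 and 642 CPM at 50 µM (log2 difference 1.00 ± 0.09, edgeR adjusted p = 0.00067). FADS2, a desaturase of polyunsaturated fatty acids, measured 444, 350.4 and 384 CPM in the controls and 915, 966 and 961 CPM at 50 µM (log2 difference 1.27 ± 0.09, edgeR adjusted p = 0.00016). No quercetin library of these genes fell within the range of the controls. ACACA, the cytosolic acetyl-CoA carboxylase, rose 1.64-fold, ACSS2 1.66-fold and FADS1 1.38-fold (edgeR adjusted p = 0.00089, 0.001 and 0.002). The mitochondrial carboxylase ACACB instead fell 1.67-fold (log2 difference -0.74 ± 0.13, edgeR adjusted p = 0.0052), as did the acyl-CoA synthetase ACSL5 (log2 difference -0.47 ± 0.08, edgeR adjusted p = 0.0045) and, barely, the elongase ELOVL7 (log2 difference -0.45 ± 0.15, edgeR adjusted p = 0.0499), whose call was lost without any 1 of the other 5 (adjusted p up to 0.17). CPT1A, which admits fatty acids to mitochondria for oxidation, fell from 127, 185 and 196 to 82.1, 87.2 and 84.1 CPM (log2 difference -1.01 ± 0.15, edgeR adjusted p = 0.0038). Over the 19 tested genes of oxidation and ketogenesis 3 were higher and 2 lower (without control replicate 1, 7 higher and 5 lower), near the background.

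Lipoprotein assembly genes moved in opposite directions. MTTP (chr4:99563825-99623997), which loads lipid onto nascent lipoproteins, measured 25.2, 12.9 and 13.7 CPM in the controls and 93.5, 85.6 and 91.8 CPM at 50 µM and was 5.21-fold higher (log2 difference 2.38 ± 0.24, edgeR adjusted p = 0.0016). APOB (chr2:20999313-21044073), the protein that MTTP loads, measured 8.73, 8.05 and 9.24 CPM in the controls and 1.74, 1.82 and 1.69 CPM at 50 µM and was 4.95-fold lower (log2 difference -2.31 ± 0.15, edgeR adjusted p = 0.00016). The 3 controls of APOB were close together, and its level was low in all libraries. In the sphingolipid group 4 of 18 rose and 5 fell (without control replicate 1, 5 higher and 9 lower). SPTSSB, a small subunit of serine palmitoyltransferase that shifts it to longer acyl chains, measured 27.1, 11.1 and 10.3 CPM in the controls and 86.9, 78.6 and 93.9 CPM at 50 µM (log2 difference 2.41 ± 0.36, edgeR adjusted p = 0.006; 3.02 without control replicate 1). The other small subunit SPTSSA and the catalytic SPTLC2 rose 1.31-fold and 1.34-fold (edgeR adjusted p = 0.0062 and 0.007), and sphingosine kinase SPHK1 fell 1.65-fold (log2 difference -0.72 ± 0.15, edgeR adjusted p = 0.0099).

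**Figure D3:**
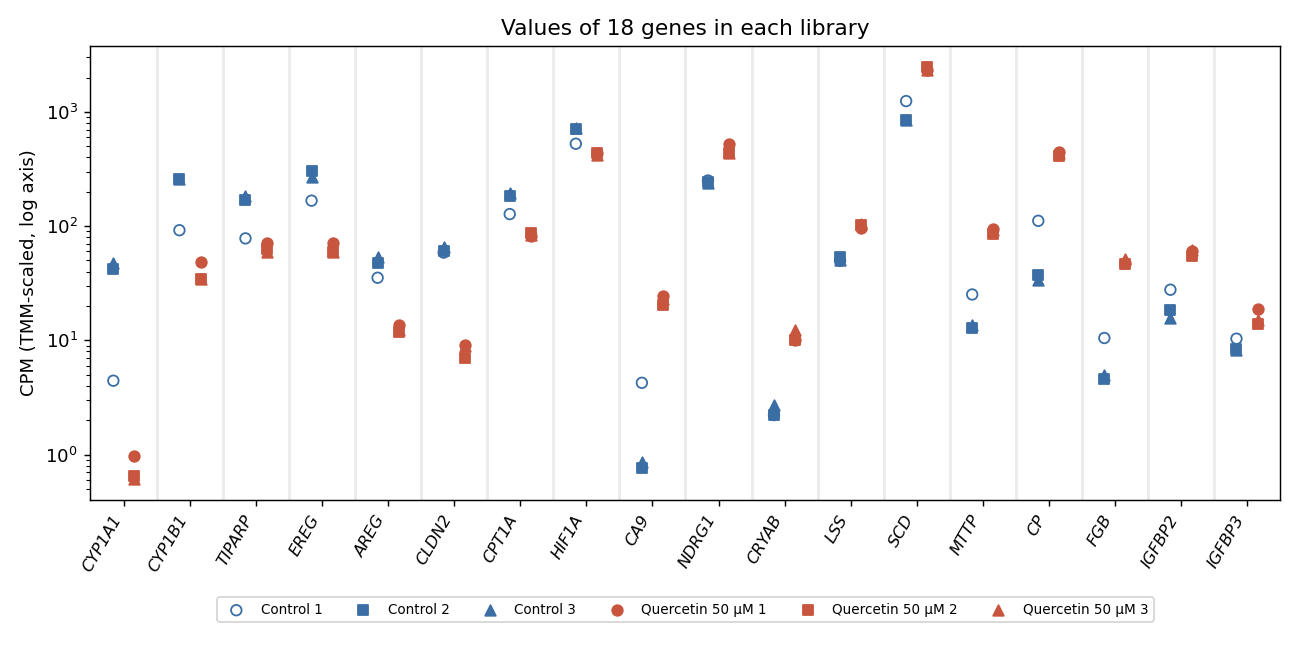
CPM of 18 genes in each library on a log axis, controls in blue (control replicate 1 as open circles) and quercetin 50 µM in red. Control replicate 1 of CYP1A1 (4.43 CPM) and CA9 (4.25 CPM) lies between the other controls and the quercetin libraries, whereas that of CLDN2 and CRYAB lies among the controls.

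Several secreted liver proteins rose severalfold, while others fell. CP, the copper ferroxidase ceruloplasmin (chr3:149162410-149222008), measured 111, 37.1 and 33.8 CPM in the controls and 441, 411 and 438 CPM at 50 µM (log2 difference 2.82 ± 0.48, edgeR adjusted p = 0.0088; 3.60 without control replicate 1). TF, the iron carrier transferrin, measured 40.6, 17.4 and 17.0 CPM in the controls and 130.1, 127 and 137 CPM at 50 µM (log2 difference 2.39 ± 0.34, edgeR adjusted p = 0.0053). ALB, albumin, measured 2.08, 0.852 and 0.817 CPM in the controls and 6.17, 9.80 and 10.7 CPM at 50 µM (log2 difference 2.81 ± 0.36, edgeR adjusted p = 0.0024; 3.40 without control replicate 1), so it remained a rare transcript in these cells. In all 3 genes control replicate 1 was higher than the other controls and below every quercetin library. ITIH2, a hyaluronan-binding plasma protein, rose 2.05-fold (log2 difference 1.03 ± 0.13, edgeR adjusted p = 0.0018) and APOH 1.29-fold (log2 difference 0.37 ± 0.09, edgeR adjusted p = 0.015). The latter call was lost without control replicate 2, or quercetin replicate 1, 2 or 3 (adjusted p up to 0.069). AFP, the fetal albumin and a liver carcinoma marker, differed by 0.26 ± 0.17 (edgeR adjusted p = 0.26). SERPINA1 fell, from 0.693, 0.710 and 1.28 to 0.145, 0.0933 and 0.234 CPM, near the lower limit of what was tested (log2 difference -2.45 ± 0.48, edgeR adjusted p = 0.0069). Of 22 tested plasma protein genes 6 rose and 6 fell, with a median log2 difference of -0.09 (without control replicate 1, 8 higher and 7 lower of 23 tested).

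Among 8 tested coagulation genes 4 were higher and none lower (median log2 difference 0.74; without control replicate 1, 7 higher and none lower of 9 tested). Fibrinogen, the clotting protein, has chains A, B and G. FGB (chr4:154562980-154572807) measured 10.5, 4.59 and 5.00 CPM in the controls and 47.8, 46.6 and 51.7 CPM at 50 µM (log2 difference 2.85 ± 0.27, edgeR adjusted p = 0.0013). FGA measured 21.8, 14.7 and 16.2 CPM in the controls and 24.8, 23.6 and 27.1 CPM at 50 µM (log2 difference 0.51 ± 0.14, edgeR adjusted p = 0.025), a call lost without any 1 of the other 5 (adjusted p up to 0.1). FGG measured 14.3, 2.04 and 2.25 CPM in the controls and 23.5, 24.0 and 23.4 CPM at 50 µM, with control replicate 1 far above the other controls. The test was not passed (1.92 ± 0.68, edgeR adjusted p = 0.074), and without that library the log2 difference was 3.46 (edgeR adjusted p = 1.5e-17). F5, coagulation factor V, rose 1.96-fold (log2 difference 0.97 ± 0.26, edgeR adjusted p = 0.029), a call lost without any 1 of the other 5 (adjusted p up to 0.099), and PROC, protein C, rose from 1.29, 0.852 and 0.817 to 2.12, 3.64 and 3.47 CPM (log2 difference 1.63 ± 0.29, edgeR adjusted p = 0.0054). The hepatocyte factor gene HNF4A fell from 32.8, 42.4 and 45.2 to 21.3, 25.3 and 24.8 CPM (log2 difference -0.75 ± 0.13, edgeR adjusted p = 0.0046). FOXA2 differed by -0.15 ± 0.07 (edgeR adjusted p = 0.098). Ferritin is the iron store: its chains FTL and FTH1 fell 1.24-fold and 1.15-fold (edgeR adjusted p = 0.016 and 0.028), as did the iron exporter SLC40A1 (-0.19 ± 0.06, edgeR adjusted p = 0.037) and the importer SLC11A2 (-0.40 ± 0.11, edgeR adjusted p = 0.025). These 4 calls were fragile: FTL was lost without control replicate 3, or quercetin replicate 1 or 3 (adjusted p up to 0.081), FTH1 without any 1 of the other 5 (adjusted p up to 0.11), SLC40A1 without any 1 of the other 5 (adjusted p up to 0.14), and SLC11A2 without any 1 of the other 5 (adjusted p up to 0.11).

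Many genes that hypoxia-inducible factors drive rose, while the factors' own transcripts fell. Of 39 tested genes of the HIF group 19 were higher and 5 lower (median 0.31; without control replicate 1, 23 higher and 9 lower). HIF1A measured 526, 708 and 724 CPM in the controls and 437, 433 and 420.2 CPM at 50 µM (log2 difference -0.60 ± 0.11, edgeR adjusted p = 0.0066). EPAS1 fell 1.19-fold (log2 difference -0.25 ± 0.07, edgeR adjusted p = 0.021), a call lost without control replicate 2 or 3, or quercetin replicate 1 or 3 (adjusted p up to 0.097). Among the oxygen sensors, EGLN1 (0.04 ± 0.10), EGLN2 (-0.13 ± 0.11) and VHL (0.23 ± 0.13) had edgeR adjusted p = 0.76, 0.41 and 0.22; without control replicate 1 EGLN2 passed at -0.25 and VHL at 0.42. CA9, the tumour carbonic anhydrase that helps cells export acid (chr9:35673809-35681159), had the largest rise of the genes named here. It measured 4.25, 0.757 and 0.868 CPM in the controls and 24.6, 20.3 and 23.2 CPM at 50 µM, 11.4-fold higher (log2 difference 3.51 ± 0.52, edgeR adjusted p = 0.0054; 4.80 without control replicate 1). NDUFA4L2, which damps mitochondrial respiration, measured 4.16, 0.521 and 0.970 CPM in the controls and 12.3, 10.6 and 10.9 CPM at 50 µM (log2 difference 2.56 ± 0.57, edgeR adjusted p = 0.018; 3.92 without control replicate 1), and its call was lost without control replicate 3 (adjusted p up to 0.065).

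Other HIF targets rose by less, and NDRG1, P4HA1 and ALDOC did so from higher levels. NDRG1, a stress-responsive gene, measured 251, 241 and 237 CPM in the controls and 522, 435 and 433 CPM at 50 µM (log2 difference 0.93 ± 0.08, edgeR adjusted p = 0.00053). P4HA1, a collagen prolyl hydroxylase, measured 87.9, 83.0 and 85.0 CPM in the controls and 181, 147 and 148 CPM at 50 µM (log2 difference 0.89 ± 0.09, edgeR adjusted p = 0.00076). ALDOC, an aldolase, measured 14.2, 10.5 and 11.5 CPM in the controls and 30.2, 33.7 and 32.4 CPM at 50 µM (log2 difference 1.41 ± 0.12, edgeR adjusted p = 0.0004). In these genes the controls differed from each other by far less than the groups did. The mitophagy receptors BNIP3L and BNIP3 rose 1.70-fold (log2 difference 0.77 ± 0.11, edgeR adjusted p = 0.0033) and 1.34-fold (log2 difference 0.42 ± 0.09, edgeR adjusted p = 0.0092). The latter call was lost without quercetin replicate 3 (adjusted p up to 0.055). ANKRD37 rose 2.23-fold at 0.613 to 2.31 CPM (edgeR adjusted p = 0.024), ANGPTL4 1.45-fold (edgeR adjusted p = 0.014) and ADM 1.19-fold (edgeR adjusted p = 0.032), and these calls were lost without control replicate 3, or quercetin replicate 1 or 3 (adjusted p up to 0.098), without quercetin replicate 1 or 3 (adjusted p up to 0.073) and without control replicate 3, or quercetin replicate 1, 2 or 3 (adjusted p up to 0.11). Not every target rose. STC2 fell 2.14-fold (log2 difference -1.10 ± 0.28, edgeR adjusted p = 0.027) and P4HA2 1.32-fold (log2 difference -0.40 ± 0.10, edgeR adjusted p = 0.017), with calls lost without any 1 of the other 5 (adjusted p up to 0.098) and without any 1 of the other 5 (adjusted p up to 0.071) in turn. The glucose transporter SLC2A1 measured 93.9, 229 and 227 CPM in the controls and 119, 101 and 107 CPM at 50 µM (-0.75 ± 0.33, edgeR adjusted p = 0.13), with control replicate 1 below all quercetin libraries, and fell without that library (-1.06, edgeR adjusted p = 1.2e-13). PDK1 (-0.50 ± 0.19, edgeR adjusted p = 0.078; -0.71 without control replicate 1) and VEGFA (0.19 ± 0.10, edgeR adjusted p = 0.17; 0.32 without it) also passed then, and CA12 differed by -0.02 ± 0.07 (edgeR adjusted p = 0.81).

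A pair of promoters of HIF targets is shown for the position of the core ACGTG, as for the AhR targets, and capitals mark ACGTG or its reverse complement CACGT. CA9 lies on the plus strand at chr9:35673678-35673927 and has 1 match, 18 bases before the start. ANKRD37 lies on the plus strand at chr4:185396591-185396840 and has 3 matches, 162, 161 and 143 bases before the start; the first pair overlap in the palindrome CACGTG, which counts once on each strand.
CA9: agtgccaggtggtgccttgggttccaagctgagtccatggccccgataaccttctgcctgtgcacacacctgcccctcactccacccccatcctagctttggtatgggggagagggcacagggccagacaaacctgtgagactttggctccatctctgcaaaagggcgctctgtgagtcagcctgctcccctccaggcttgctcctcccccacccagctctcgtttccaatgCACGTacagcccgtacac
ANKRD37: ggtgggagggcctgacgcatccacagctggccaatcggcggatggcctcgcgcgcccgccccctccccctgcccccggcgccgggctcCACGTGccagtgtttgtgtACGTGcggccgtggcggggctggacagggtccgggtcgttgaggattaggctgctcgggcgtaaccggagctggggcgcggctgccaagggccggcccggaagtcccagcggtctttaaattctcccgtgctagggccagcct
Of the 19 HIF targets that rose, 15 had a window, and 12 of these (80.0%) held ACGTG on either strand. Among the 10215 tested genes with a window 28.6% did. The AhR core GCGTG was present in 11 of the 15 (73.3%), against 53.1% of the 10215. The list was drawn up from genes known as HIF targets, and listed targets that did not rise were not compared. The shares therefore describe the letters of the list only and say nothing on quercetin.

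Glycolytic genes rose more often than they fell. Of 20 tested genes 9 were higher and 2 lower (median 0.14; without control replicate 1, 10 higher and 6 lower), some of them shared with the HIF group. PGK1 measured 1412, 1499.5 and 1629 CPM in the controls and 2331, 2001 and 2107 CPM at 50 µM (log2 difference 0.50 ± 0.08, edgeR adjusted p = 0.0038) and LDHA 1087, 1180.2 and 1309 CPM in the controls and 1795, 1502 and 1577 CPM at 50 µM (log2 difference 0.45 ± 0.09, edgeR adjusted p = 0.0079). Both showed a small step with no overlap. PFKL rose 1.52-fold, TPI1 1.38-fold and ENO2 1.51-fold (edgeR adjusted p = 0.0028, 0.0033 and 0.005), as did the lactate exporter gene SLC16A3 (log2 difference 0.83 ± 0.15, edgeR adjusted p = 0.0068). The abundant enolase ENO1 rose 1.18-fold (log2 difference 0.24 ± 0.06, edgeR adjusted p = 0.021), a call lost without control replicate 2, or quercetin replicate 1 or 3 (adjusted p up to 0.093). HK1, a hexokinase, fell 1.29-fold (log2 difference -0.36 ± 0.08, edgeR adjusted p = 0.011) and GPI 1.24-fold (log2 difference -0.31 ± 0.09, edgeR adjusted p = 0.035), and their calls were lost without quercetin replicate 1 or 3 (adjusted p up to 0.059) and without any 1 of the other 5 (adjusted p up to 0.13). GAPDH, often used as a reference gene, differed by -0.15 ± 0.10 (edgeR adjusted p = 0.28) and by -0.27 without control replicate 1 (edgeR adjusted p = 0.00018).

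Ligands of the EGF receptor family fell where they passed. Of 8 tested ligands 5 were lower and none higher, and over the 14 genes with receptors and inhibitors 7 were lower and 2 higher (median -0.36; without control replicate 1, 7 lower and 3 higher). EREG, epiregulin, which is also listed as an AhR target, measured 167, 303 and 268 CPM in the controls and 70.5, 59.2 and 59.0 CPM at 50 µM (log2 difference -1.97 ± 0.21, edgeR adjusted p = 0.002). AREG, amphiregulin, measured 35.3, 47.4 and 53.6 CPM in the controls and 13.6, 11.9 and 12.2 CPM at 50 µM (log2 difference -1.85 ± 0.15, edgeR adjusted p = 0.00053). TGFA measured 26.4, 49.8 and 49.9 CPM in the controls and 13.1, 14.2 and 15.8 CPM at 50 µM (log2 difference -1.55 ± 0.24, edgeR adjusted p = 0.0052). For each of these ligands every quercetin library was below every control. NRG1 fell 1.45-fold (log2 difference -0.54 ± 0.11, edgeR adjusted p = 0.0069) and BTC 1.36-fold (log2 difference -0.44 ± 0.11, edgeR adjusted p = 0.018). The last of these calls was lost without any 1 of the other 5 (adjusted p up to 0.077). EGF (0.15 ± 0.10) and HBEGF (-0.43 ± 0.18) had edgeR adjusted p = 0.27 and 0.093. EGFR fell from 83.7, 142 and 136 to 72.0, 70.7 and 73.3 CPM (log2 difference -0.75 ± 0.18, edgeR adjusted p = 0.02). ERBB3, a kinase-impaired family member, rose 1.67-fold (log2 difference 0.74 ± 0.22, edgeR adjusted p = 0.037) and ERBB2 differed by 0.44 ± 0.20 (edgeR adjusted p = 0.12; 0.74 without control replicate 1). The calls of EGFR and ERBB3 were lost without any 1 of the other 5 (adjusted p up to 0.075) and without any 1 of the other 5 (adjusted p up to 0.12). The feedback inhibitor ERRFI1 fell 1.22-fold (log2 difference -0.29 ± 0.06, edgeR adjusted p = 0.01) and LRIG3, of a family of receptor regulators, rose 1.17-fold (log2 difference 0.23 ± 0.07, edgeR adjusted p = 0.029), with calls lost without quercetin replicate 3 (adjusted p up to 0.059) and without any 1 of the other 5 (adjusted p up to 0.11). MET, the receptor of hepatocyte growth factor and the falling gene with the second highest CPM, fell 1.30-fold (log2 difference -0.37 ± 0.06, edgeR adjusted p = 0.0042).

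Feedback genes of the MAP kinase pathway fell more often than they rose, and the activity of the pathway was not measured. Of 21 tested 10 were lower and 3 higher (median -0.21; without control replicate 1, 11 lower and 5 higher). Among the phosphatases, DUSP5 fell from 192, 290.1 and 301 to 162, 161 and 153 CPM (log2 difference -0.72 ± 0.15, edgeR adjusted p = 0.012) and DUSP6 1.18-fold (log2 difference -0.24 ± 0.07, edgeR adjusted p = 0.029). DUSP8 rose 2.35-fold at a low level (log2 difference 1.23 ± 0.22, edgeR adjusted p = 0.0052). The call of DUSP5 was lost without quercetin replicate 3 (adjusted p up to 0.054) and that of DUSP6 without control replicate 2, or quercetin replicate 1, 2 or 3 (adjusted p up to 0.11). IER3 fell with tight replicates, from 70.4, 69.4 and 68.2 to 47.0, 46.2 and 50.6 CPM (log2 difference -0.53 ± 0.06, edgeR adjusted p = 0.0014). SPRED2 (-0.50 ± 0.11), SPRED3 (-0.69 ± 0.21) and SPRY4 (-0.37 ± 0.08) fell at edgeR adjusted p = 0.011, 0.035 and 0.011, and SPRY1 rose (0.49 ± 0.14, edgeR adjusted p = 0.03). These 4 were lost without quercetin replicate 1 or 3 (adjusted p up to 0.053), without quercetin replicate 1, 2 or 3 (adjusted p up to 0.13), without quercetin replicate 1 (adjusted p up to 0.054) and without any 1 of the other 5 (adjusted p up to 0.11), in that order. Of the AP-1 and early response factors, FOSL1 fell from 72.7, 115 and 109 to 48.2, 46.1 and 48.7 CPM (log2 difference -1.05 ± 0.16, edgeR adjusted p = 0.0041) and EGR2 from 3.09, 9.14 and 8.78 to 2.22, 1.63 and 1.64 CPM (log2 difference -1.93 ± 0.41, edgeR adjusted p = 0.011). The latter call was lost without quercetin replicate 3 (adjusted p up to 0.052). JUND, another AP-1 member, rose from 34.9, 40.8 and 37.3 to 75.9, 80.9 and 78.8 CPM (log2 difference 1.06 ± 0.07, edgeR adjusted p = 0.00016). JUNB rose 1.49-fold (log2 difference 0.58 ± 0.17, edgeR adjusted p = 0.036), a call lost without any 1 of the other 5 (adjusted p up to 0.12). MYC differed by 0.08 ± 0.07 (edgeR adjusted p = 0.39).

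Genes of the bone morphogenetic protein and TGF-beta pathway changed in both directions. Of 30 tested genes, ligands and receptors included, 10 were higher and 8 lower (without control replicate 1, 14 higher and 10 lower). Of the 12 targets 6 were higher and 3 lower. The falling genes named below are ligands, and the 3 lower targets are not named here. ID1, an inhibitor of differentiation, measured 366, 208 and 233 CPM in the controls and 411, 427 and 433 CPM at 50 µM (log2 difference 0.66 ± 0.19, edgeR adjusted p = 0.037). ID3 measured 200.4, 95.8 and 103 CPM in the controls and 279.7, 293 and 294 CPM at 50 µM (log2 difference 1.12 ± 0.28, edgeR adjusted p = 0.025). ID2 rose 1.28-fold (edgeR adjusted p = 0.012). Here too control replicate 1 lay towards quercetin, and the calls were lost without any 1 of the other 5 (adjusted p up to 0.12) for ID1, without control replicate 2 or 3, or quercetin replicate 3 (adjusted p up to 0.083) for ID3 and without control replicate 2, or quercetin replicate 1 or 3 (adjusted p up to 0.059) for ID2. The inhibitory SMADs rose with them, SMAD6 1.78-fold (log2 difference 0.83 ± 0.15, edgeR adjusted p = 0.0066) and SMAD7 1.52-fold (log2 difference 0.60 ± 0.14, edgeR adjusted p = 0.012). The SMAD7 call was lost without quercetin replicate 2 (adjusted p up to 0.051). TGFBI rose 1.40-fold (log2 difference 0.49 ± 0.06, edgeR adjusted p = 0.0017). Among ligands, TGFB2 rose 1.36-fold (log2 difference 0.44 ± 0.09, edgeR adjusted p = 0.0072) and TGFB1 fell 1.27-fold (log2 difference -0.35 ± 0.10, edgeR adjusted p = 0.024), a call lost without any 1 of the other 5 (adjusted p up to 0.1). GDF15, a stress-induced ligand, measured 57.8, 160.1 and 147 CPM in the controls and 40.2, 41.4 and 43.1 CPM at 50 µM (log2 difference -1.55 ± 0.37, edgeR adjusted p = 0.025), a call lost without control replicate 2 or 3 (adjusted p up to 0.092). INHBB fell 2.28-fold (edgeR adjusted p = 0.023) and INHBA rose 2.91-fold from under 1 CPM (edgeR adjusted p = 0.013), with calls lost without control replicate 2 or 3, or quercetin replicate 2 or 3 (adjusted p up to 0.085) and without quercetin replicate 1 or 3 (adjusted p up to 0.06).

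Tight junction genes fell where they passed. Of 17 tested 6 were lower and none higher (without control replicate 1, 7 lower and 3 higher). CLDN2, the cation-pore claudin of leaky epithelia (chrX:106900164-106930861), measured 58.7, 60.5 and 65.3 CPM in the controls and 9.11, 6.95 and 8.99 CPM at 50 µM. The 3 controls were close here, and CLDN2 had the lowest adjusted p of the named genes (7.36-fold lower; log2 difference -2.88 ± 0.11, edgeR adjusted p = 6.9e-06). CLDN1 fell from 12.7, 14.2 and 15.5 to 6.27, 6.72 and 6.79 CPM (log2 difference -1.10 ± 0.11, edgeR adjusted p = 0.00094) and CGN, cingulin, from 71.1, 83.1 and 84.8 to 37.0, 41.2 and 40.6 CPM (log2 difference -1.01 ± 0.09, edgeR adjusted p = 0.00046). The scaffold gene TJP1 fell 1.39-fold (log2 difference -0.47 ± 0.10, edgeR adjusted p = 0.0083), a call lost without quercetin replicate 3 (adjusted p up to 0.056). CLDN4 (0.14 ± 0.10) and OCLN (-0.16 ± 0.10) had edgeR adjusted p = 0.28 and 0.26.

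Matrix and adhesion genes changed in both directions, and laminin chains did so within 1 family. In the extracellular matrix group 12 of 37 rose and 10 fell (without control replicate 1, 15 higher and 11 lower), and in the integrin group 6 of 18 rose and 4 fell (without control replicate 1, 9 higher and 5 lower). LAMA4 (-1.42 ± 0.14) and LAMB3 (-1.11 ± 0.18) fell, with edgeR adjusted p = 0.001 and 0.0053. LAMA5 rose (log2 difference 0.85 ± 0.15, edgeR adjusted p = 0.0066). LAMA3, a partner of LAMB3 in epithelial laminin, rose 1.19-fold (log2 difference 0.25 ± 0.07, edgeR adjusted p = 0.029), a call lost without control replicate 2, or quercetin replicate 1, 2 or 3 (adjusted p up to 0.098). FN1, fibronectin, measured 5315, 3533 and 3409 CPM in the controls and 6267, 6917 and 6896 CPM at 50 µM (log2 difference 0.71 ± 0.16, edgeR adjusted p = 0.015), a call lost without control replicate 2, or quercetin replicate 2 or 3 (adjusted p up to 0.056). COL6A3 fell from 5.96, 6.96 and 7.25 to 2.17, 2.19 and 2.25 CPM (log2 difference -1.61 ± 0.15, edgeR adjusted p = 0.00068), and DCN, decorin, fell 2.43-fold (log2 difference -1.28 ± 0.18, edgeR adjusted p = 0.0028). HSPG2, perlecan, rose 1.83-fold (log2 difference 0.87 ± 0.14, edgeR adjusted p = 0.0043). Of the integrins, ITGA2 (-0.64 ± 0.08), ITGA3 (-0.69 ± 0.14) and the laminin receptor chain ITGA6 (-0.53 ± 0.08) fell at edgeR adjusted p = 0.0017, 0.008 and 0.0029. ITGB1 rose 1.26-fold (log2 difference 0.33 ± 0.06, edgeR adjusted p = 0.0048) and ITGA1 1.96-fold (log2 difference 0.97 ± 0.28, edgeR adjusted p = 0.037). The last of these calls was lost without any 1 of the other 5 (adjusted p up to 0.11), and ITGB4 differed by 0.14 ± 0.15 (edgeR adjusted p = 0.49; 0.35 without control replicate 1).

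Among matrix proteases and their inhibitors 7 of 24 rose and 6 fell (without control replicate 1, 7 higher and 11 lower). MMP7, matrilysin, measured 35.8, 15.2 and 17.3 CPM in the controls and 82.7, 72.6 and 94.6 CPM at 50 µM (log2 difference 1.87 ± 0.32, edgeR adjusted p = 0.0086), MMP14 rose 1.42-fold (log2 difference 0.50 ± 0.10, edgeR adjusted p = 0.0074) and PLAT, the tissue plasminogen activator, 1.69-fold (log2 difference 0.76 ± 0.10, edgeR adjusted p = 0.0017). The inhibitor TIMP1 fell from 188, 244 and 254 to 132, 125 and 137 CPM (log2 difference -0.80 ± 0.11, edgeR adjusted p = 0.0026). The urokinase receptor gene PLAUR fell 1.65-fold (log2 difference -0.72 ± 0.14, edgeR adjusted p = 0.0067) and urokinase, PLAU, 1.30-fold (log2 difference -0.38 ± 0.09, edgeR adjusted p = 0.013). The latter call was lost without control replicate 2 or 3, or quercetin replicate 2 or 3 (adjusted p up to 0.064).

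Cytoskeletal genes fell more often than they rose. Of 28 tested actin and serum response factor genes 8 were lower and 3 higher (without control replicate 1, 15 lower and 4 higher), and of 11 tubulins 6 were lower and 1 higher (median -0.38; without control replicate 1, 7 lower and 1 higher). ACTB, beta-actin, measured 3538, 4404 and 4305 CPM in the controls and 2795, 2787 and 2760.5 CPM at 50 µM (log2 difference -0.55 ± 0.09, edgeR adjusted p = 0.0034), and filamin FLNA fell 1.57-fold (log2 difference -0.65 ± 0.10, edgeR adjusted p = 0.0036). TAGLN, an actin-binding protein of contractile cells, fell from 4.80, 10.5 and 10.4 to 1.69, 1.82 and 2.48 CPM (log2 difference -2.09 ± 0.32, edgeR adjusted p = 0.0042). VCL (-0.62 ± 0.12), ZYX (-0.58 ± 0.12) and MYH9 (-0.60 ± 0.13) of focal adhesions and stress fibres fell at edgeR adjusted p = 0.0078, 0.0078 and 0.01. TUBB (-0.46 ± 0.08), TUBA1C (-0.51 ± 0.08) and TUBG1 (-0.47 ± 0.10) fell at edgeR adjusted p = 0.0052, 0.0034 and 0.0099, and held in every omission. TUBA1B (-0.38 ± 0.09), TUBB4B (-0.31 ± 0.10) and TUBA4A (-0.55 ± 0.13) fell at edgeR adjusted p = 0.016, 0.036 and 0.015, and were lost without any 1 of the other 5 (adjusted p up to 0.071), without any 1 of the other 5 (adjusted p up to 0.13) and without control replicate 2, or quercetin replicate 1, 2 or 3 (adjusted p up to 0.065). TUBB2B, a neuronal tubulin, rose from 6.46, 5.25 and 3.32 to 11.9, 13.7 and 16.4 CPM (log2 difference 1.48 ± 0.22, edgeR adjusted p = 0.0037). Several tubulin genes are near-identical, so reads may be split between them. KRT18 fell 1.35-fold (log2 difference -0.43 ± 0.07, edgeR adjusted p = 0.0041) and KRT80 3.03-fold (log2 difference -1.60 ± 0.26, edgeR adjusted p = 0.0054). KRT8, the partner of KRT18, differed by -0.13 ± 0.08 (edgeR adjusted p = 0.24; -0.20 without control replicate 1, edgeR adjusted p = 0.0028).

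Most ribosomal protein genes rose, by a small amount. Of 56 tested 42 were higher and none lower, the largest share higher of any list, at a median log2 difference of 0.29 (without control replicate 1, 50 higher and none lower). RPS25 measured 309, 240.0 and 254 CPM in the controls and 396, 366 and 425 CPM at 50 µM (log2 difference 0.56 ± 0.10, edgeR adjusted p = 0.0055), RPL9 rose 1.43-fold (log2 difference 0.51 ± 0.10, edgeR adjusted p = 0.0065) and RPLP0 1.27-fold (log2 difference 0.34 ± 0.07, edgeR adjusted p = 0.0071). The elongation factor gene EEF1A1, the rising gene with the highest CPM, rose 1.21-fold (log2 difference 0.28 ± 0.07, edgeR adjusted p = 0.015), a call lost without control replicate 2, or quercetin replicate 1 or 3 (adjusted p up to 0.072). Nuclear genes of the respiratory chain rose in 25 of 52 and fell in 2 (median 0.25; without control replicate 1, 33 higher and 4 lower), most often in complex I (11 of 21) and complex IV (6 of 10). NDUFA2 (0.64 ± 0.13), COX6C (0.54 ± 0.13), ATP5F1E (0.49 ± 0.11) and UQCR11 (0.49 ± 0.10) rose at edgeR adjusted p = 0.0079, 0.018, 0.013 and 0.0067. The first 3 were lost without quercetin replicate 3 (adjusted p up to 0.0503), without control replicate 2 or 3, or quercetin replicate 3 (adjusted p up to 0.072) and without quercetin replicate 3 (adjusted p up to 0.062). The 2 that fell were NDUFA8 (log2 difference -0.29 ± 0.09, edgeR adjusted p = 0.043) and NDUFB9 (log2 difference -0.24 ± 0.07, edgeR adjusted p = 0.026), lost without any 1 of the other 5 (adjusted p up to 0.16) and without control replicate 2 or 3, or quercetin replicate 1 or 2 (adjusted p up to 0.1). In contrast to the ribosomal proteins, factors that build ribosomes fell in 15 of 36 and rose in none (median -0.20; without control replicate 1, 25 lower and 1 higher), among them UTP20 (-0.70 ± 0.08), HEATR1 (-0.67 ± 0.06), NOP2 (-0.49 ± 0.10) and POLR1A (-0.49 ± 0.08), at edgeR adjusted p = 0.0013, 0.00065, 0.009 and 0.0038.

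Transcript length moved with the difference, and both rising groups are made of short transcripts. Over 5 equal groups of the 12310 tested genes with a known transcript length, the median log2 difference was 0.12 for the shortest, then 0.05, 0.01 and -0.05, and -0.13 for the longest. The share of genes called higher was 23.4% in the shortest and 10.0% in the longest group, and the share called lower was 8.81% and 30.2%. With this trend removed, an alternative chosen after seeing the data, 26 of 56 ribosomal proteins were higher and none lower (median 0.16), and 19 of 52 respiratory chain genes were higher and 5 lower (median 0.14). Ribosome biogenesis then had 17 lower and 1 higher of 36, and cholesterol synthesis 11 higher and none lower of 21. Some other groups also moved with the trend removed. The IGF axis then had 5 higher and 4 lower, and its median was 0.05 instead of -0.13. Insulin, PI3K and FOXO genes, whose median transcript length was 6344 bases, had 6 higher and 9 lower. Their median was 0.02 instead of -0.04. Extracellular matrix genes had 15 higher and 8 lower, the proteasome 1 and 13, and the BCL2 family 6 and 4. EGF receptor genes stayed at 2 higher and 7 lower. Named genes whose calls were lost with the trend removed are listed below. The cause of the trend was not tested.

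**Figure D4:**
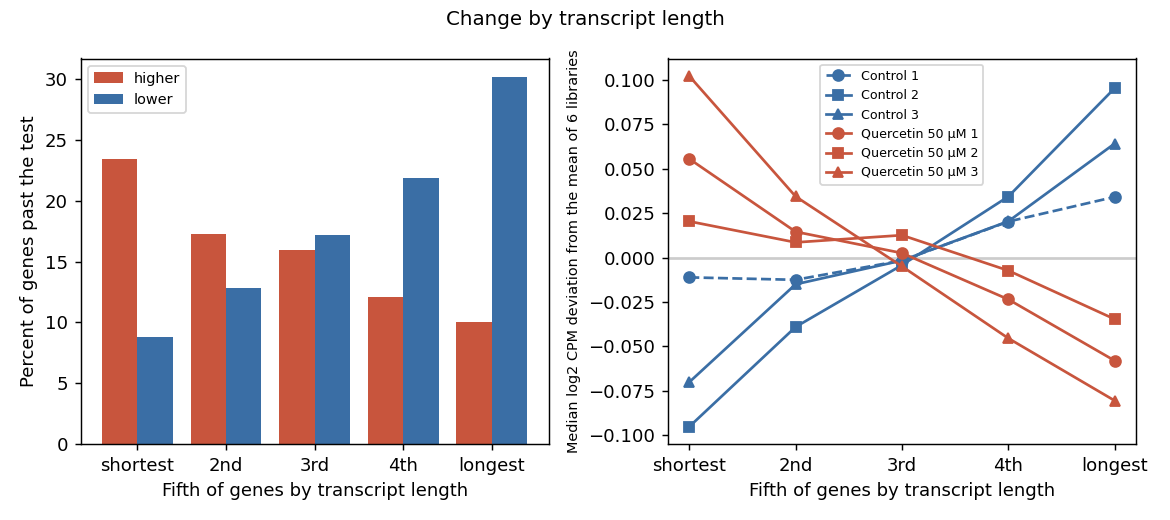
Left, percent of genes called higher (red) and lower (blue) in 5 groups of genes from the shortest to the longest transcripts; right, the median deviation of each library from the mean of all 6 on the log2 CPM scale. The share called lower grows from 8.81% to 30.2%, and the quercetin and control libraries slope in opposite directions.

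Protein folding genes fell more often than they rose. In the heat shock group 15 of 47 were lower and 3 higher (without control replicate 1, 27 lower and 7 higher), and in the unfolded protein response 10 of 27 were lower and 1 higher (without control replicate 1, 14 lower and 4 higher). The cochaperone BAG3 fell from 129, 148 and 139 to 81.3, 85.1 and 81.1 CPM (log2 difference -0.75 ± 0.07, edgeR adjusted p = 0.00057). HSPA4L and HSPH1 fell 1.70-fold and 1.47-fold (edgeR adjusted p = 0.0013 and 0.0064), HSP90AB1 1.28-fold (log2 difference -0.36 ± 0.08, edgeR adjusted p = 0.01), HSPA8 1.26-fold (log2 difference -0.33 ± 0.10, edgeR adjusted p = 0.028) and HSPB8 1.53-fold (log2 difference -0.61 ± 0.13, edgeR adjusted p = 0.012). The last 3 calls were lost without quercetin replicate 3 (adjusted p up to 0.063), without any 1 of the other 5 (adjusted p up to 0.11) and without quercetin replicate 3 (adjusted p up to 0.058). HSF1, the factor that drives these genes, differed by -0.22 ± 0.11 (edgeR adjusted p = 0.15; -0.33 without control replicate 1, edgeR adjusted p = 6.6e-05). The small heat shock protein CRYAB went the other way, measuring 2.22, 2.22 and 2.71 CPM in the controls and 10.0, 9.98 and 12.2 CPM at 50 µM (log2 difference 2.17 ± 0.15, edgeR adjusted p = 0.00016). In the endoplasmic reticulum HSPA5, its main chaperone, fell 1.36-fold (log2 difference -0.44 ± 0.08, edgeR adjusted p = 0.0062), and DNAJC3 and PPP1R15A fell 1.37-fold and 1.40-fold (edgeR adjusted p = 0.016 and 0.033), lost without control replicate 2 or 3, or quercetin replicate 1 or 3 (adjusted p up to 0.083) and without any 1 of the other 5 (adjusted p up to 0.11). ATF4 differed by 0.50 ± 0.22 (edgeR adjusted p = 0.12), with control replicate 1 at the quercetin level, and rose without it (0.82, edgeR adjusted p = 4.0e-08).

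Of 38 tested lysosomal genes 4 were higher and 9 lower. Without control replicate 1, 4 were higher and 21 lower, against 29.3% and 29.6% of all genes. Among those that passed were TPP1, a peptidase (log2 difference -0.70 ± 0.11, edgeR adjusted p = 0.0042), CTSL, cathepsin L (log2 difference -0.57 ± 0.07, edgeR adjusted p = 0.0017), and MCOLN1, a calcium channel (log2 difference -0.64 ± 0.18, edgeR adjusted p = 0.028), which fell. GAA, which degrades glycogen, and LIPA, which degrades sterol esters, rose (0.98 ± 0.20 and 0.52 ± 0.06, edgeR adjusted p = 0.011 and 0.0011). ATP6V1A, a subunit of the proton pump, fell 1.37-fold (log2 difference -0.46 ± 0.11, edgeR adjusted p = 0.014). The calls of MCOLN1 and ATP6V1A were lost without any 1 of the other 5 (adjusted p up to 0.1) and without control replicate 2 or 3, or quercetin replicate 3 (adjusted p up to 0.074). The lysosomal factor TFEB was low and level (2.45, 2.89 and 2.09 against 2.36, 2.47 and 2.25 CPM; -0.07 ± 0.20, edgeR adjusted p = 0.8). SQSTM1, the autophagy receptor and an NRF2 target, fell from 2451, 3083 and 3102 to 1982, 2072 and 2075 CPM (log2 difference -0.49 ± 0.09, edgeR adjusted p = 0.006). Of 32 tested NRF2 genes 10 were lower and 3 higher (without control replicate 1, 16 lower and 5 higher).

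Cell cycle genes showed no single direction. CDK6, the G1 kinase, fell from 53.0, 59.1 and 61.4 to 30.4, 31.9 and 30.8 CPM (log2 difference -0.90 ± 0.07, edgeR adjusted p = 0.00043), and among 12 tested cyclins and E2F genes 7 fell and none rose (without control replicate 1, 7 lower and 1 higher). Of 7 CDK inhibitors 3 rose and 1 fell (without control replicate 1, 4 higher and 2 lower). CDKN2D rose 1.49-fold (log2 difference 0.57 ± 0.12, edgeR adjusted p = 0.0094), CDKN2C 1.38-fold (log2 difference 0.46 ± 0.11, edgeR adjusted p = 0.016) and CDKN1B 1.19-fold (log2 difference 0.26 ± 0.06, edgeR adjusted p = 0.015). CDKN2B fell 1.18-fold (log2 difference -0.23 ± 0.08, edgeR adjusted p = 0.044). The last 3 calls were lost without control replicate 2 or 3, or quercetin replicate 1 or 3 (adjusted p up to 0.079), without any 1 of the other 5 (adjusted p up to 0.067) and without any 1 of the other 5 (adjusted p up to 0.15). CDKN1A differed by -0.27 ± 0.13 (edgeR adjusted p = 0.13) and fell without control replicate 1 (-0.42, edgeR adjusted p = 3.8e-07). Of 37 genes of G2 and mitosis 13 rose and 6 fell (without control replicate 1, 20 higher and 9 lower): CDK1 (0.49 ± 0.08), CCNB2 (0.52 ± 0.10) and TTK (0.45 ± 0.08) rose at edgeR adjusted p = 0.0044, 0.0064 and 0.0056, and CDC25B (-0.59 ± 0.07), KIF4A (-0.46 ± 0.09) and PLK1 (-0.31 ± 0.10) fell at edgeR adjusted p = 0.0012, 0.007 and 0.044. PLK1 was lost without any 1 of the other 5 (adjusted p up to 0.15).

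In the BCL2 family, which sets the threshold of apoptosis, 7 of 12 pro-apoptotic genes rose and none fell, and 2 of 5 anti-apoptotic genes fell and none rose. Without control replicate 1, 7 higher and 2 lower were counted among the former and 1 higher and 2 lower among the latter. BBC3, which encodes PUMA, measured 8.82, 5.21 and 4.39 CPM in the controls and 12.1, 14.0 and 14.0 CPM at 50 µM (log2 difference 1.12 ± 0.23, edgeR adjusted p = 0.0093), and BAD and BID rose 1.47-fold and 1.43-fold (edgeR adjusted p = 0.002 and 0.0063). BNIP3 and BNIP3L, counted here, are also HIF targets. MCL1 (log2 difference -0.27 ± 0.06, edgeR adjusted p = 0.015) and BCL2L1 (log2 difference -0.29 ± 0.07, edgeR adjusted p = 0.012) fell. These calls were lost without control replicate 2 or 3, or quercetin replicate 3 (adjusted p up to 0.076) and without control replicate 3, or quercetin replicate 1 or 2 (adjusted p up to 0.059). MDM2, a ubiquitin ligase gene, fell 1.25-fold (log2 difference -0.32 ± 0.08, edgeR adjusted p = 0.016), a call lost without quercetin replicate 1 or 3 (adjusted p up to 0.077).

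Genes of bile acid and glycogen metabolism changed in both directions. Of 9 tested bile acid genes 4 fell and 1 rose (without control replicate 1, 4 lower and 3 higher): the basolateral exporter chain SLC51B fell from 22.9, 28.4 and 34.9 to 14.8, 11.9 and 15.0 CPM (log2 difference -1.04 ± 0.16, edgeR adjusted p = 0.0039), HSD3B7, an enzyme of synthesis, 1.17-fold (log2 difference -0.23 ± 0.07, edgeR adjusted p = 0.033), and the canalicular pump ABCB11, at 0.53 to 2.84 CPM, 2.35-fold (log2 difference -1.23 ± 0.42, edgeR adjusted p = 0.0497). SLC27A5 rose 1.41-fold (log2 difference 0.49 ± 0.17, edgeR adjusted p = 0.0499). The calls of HSD3B7, ABCB11 and SLC27A5 were lost without any 1 of the other 5 (adjusted p up to 0.12), without any 1 of the other 5 (adjusted p up to 0.17) and without any 1 of the other 5 (adjusted p up to 0.17). Of 11 genes of gluconeogenesis and glycogen 4 rose and 2 fell (without control replicate 1, 6 higher and 3 lower). PPP1R3C, a glycogen-targeting subunit, rose from 16.9, 9.70 and 10.7 to 24.8, 24.4 and 22.0 CPM (log2 difference 0.93 ± 0.19, edgeR adjusted p = 0.0092) and pyruvate carboxylase, PC, 1.26-fold (log2 difference 0.33 ± 0.06, edgeR adjusted p = 0.0057). UGP2 rose 1.18-fold (log2 difference 0.24 ± 0.08, edgeR adjusted p = 0.044), and the glycogen-degrading PYGB fell 1.30-fold (log2 difference -0.37 ± 0.09, edgeR adjusted p = 0.014). These calls were lost without any 1 of the other 5 (adjusted p up to 0.16) and without quercetin replicate 1 or 3 (adjusted p up to 0.073).

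The 15 largest rises and falls among non-overlapping genes with a mean of 5 CPM or more also held genes not yet described. ITM2A, a membrane protein, rose from 68.2, 39.4 and 43.6 to 221, 215 and 253 CPM (log2 difference 2.19 ± 0.20, edgeR adjusted p = 0.0012). KLRC2, a gene of natural killer receptors, rose from 6.42, 2.22 and 1.84 to 19.2, 16.8 and 19.0 CPM (log2 difference 2.37 ± 0.40, edgeR adjusted p = 0.0065; 3.16 without control replicate 1), BCHE, butyrylcholinesterase, from 6.42, 2.32 and 1.89 to 12.4, 13.3 and 11.9 CPM (log2 difference 1.81 ± 0.39, edgeR adjusted p = 0.013; 2.57 without it) and the endothelial factor SOX18 from 4.76, 0.899 and 0.970 to 6.22, 9.71 and 9.13 CPM (log2 difference 1.90 ± 0.57, edgeR adjusted p = 0.042; 3.16 without it). The call of SOX18 was lost without any 1 of the other 5 (adjusted p up to 0.12). SLC16A6, a transporter of the monocarboxylate family, fell from 8.03, 34.3 and 32.8 to 3.52, 3.36 and 2.44 CPM (log2 difference -3.01 ± 0.60, edgeR adjusted p = 0.014), the call being lost without control replicate 2 (adjusted p up to 0.051). VDR, the vitamin D receptor, fell from 8.40, 11.9 and 12.5 to 3.18, 3.36 and 2.90 CPM (log2 difference -1.79 ± 0.18, edgeR adjusted p = 0.00076), and ENPP2, autotaxin, from 26.2, 39.8 and 49.3 to 12.6, 11.7 and 9.70 CPM (log2 difference -1.76 ± 0.23, edgeR adjusted p = 0.0029). DPP4, a cell surface peptidase, fell from 159, 318 and 336 to 101, 90.0 and 85.9 CPM (log2 difference -1.56 ± 0.28, edgeR adjusted p = 0.0088), WNT7B from 16.9, 37.0 and 34.4 to 9.88, 8.49 and 8.71 CPM (log2 difference -1.70 ± 0.28, edgeR adjusted p = 0.0059) and APBB1IP, an integrin activator, from 5.40, 9.85 and 9.19 to 2.51, 2.24 and 2.62 CPM (log2 difference -1.73 ± 0.24, edgeR adjusted p = 0.0024). Of abundant transcripts, ALDH1A1, retinal dehydrogenase, rose 1.26-fold (log2 difference 0.34 ± 0.06, edgeR adjusted p = 0.0046) and ASPH, an aspartyl hydroxylase, 1.30-fold (log2 difference 0.38 ± 0.11, edgeR adjusted p = 0.032). The ASPH call was lost without any 1 of the other 5 (adjusted p up to 0.11).

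Apart from the omissions, some calls depended on a setting of the test. With no filter on low counts the calls of NDUFA4L2, STC2, NPC1L1, F5, SLC40A1, EGFR, ERBB3, JUNB, ID1, ID3, INHBB, GDF15, ITGA1, PPP1R15A, IGFBP5 and SOX18 were lost as well, at adjusted p from 0.053 (EGFR) to 0.12 (SOX18). DESeq2 did not call AHRR (adjusted p = 0.07), IGFBP5 (adjusted p = 0.26) or CDKN2B (adjusted p = 0.051). With the length trend removed, AHRR, ABCC2, ADM, GPI, APOH, TMEM219, MDM2, SLC27A5, ABCB11 and UGP2 were lost, at adjusted p from 0.053 (AHRR) to 0.26 (MDM2). ELOVL7 was lost under each of these settings and with RLE size factors or a minimum of 1 CPM (adjusted p from 0.051 to 0.075). With the replicate number as a block in the edgeR fit, 21 of the 239 named calls were lost. Among them were TIPARP, AHRR and ABCC2 (edgeR adjusted p = 0.054, 0.072 and 0.074).

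In some other groups the share called was near the 33.9% of all genes or below it. Of 15 complement genes 2 were higher and none lower, of 32 chemokine, cytokine and NF-kB genes 5 and 2, of 20 aminoacyl-tRNA synthetases 1 and 4, of 34 interferon and antigen presentation genes 5 and 6, and of 34 proteasome genes 2 and 9. Without control replicate 1, where 29.3% of all genes were higher and 29.6% lower, 10 complement genes were higher and 1 lower, and 17 chemokine, cytokine and NF-kB genes were higher and 7 lower. Interferon and antigen presentation then had 14 higher and 8 lower, the proteasome 10 higher and 12 lower and the aminoacyl-tRNA synthetases 6 higher and 6 lower. The place of control replicate 1 varied over the lists. Its median was -0.31 for cholesterol synthesis, 0.26 for sterol regulation, 0.27 for the HIF group and 0.28 for fatty acid synthesis, near the other controls. It was 0.86 for complement, 0.92 for chemokines, cytokines and NF-kB, 0.92 for the lysosome and 0.97 for aminoacyl-tRNA synthetases, near quercetin. These positions are descriptions over genes called without that library, with no test.

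**Figure D5:**
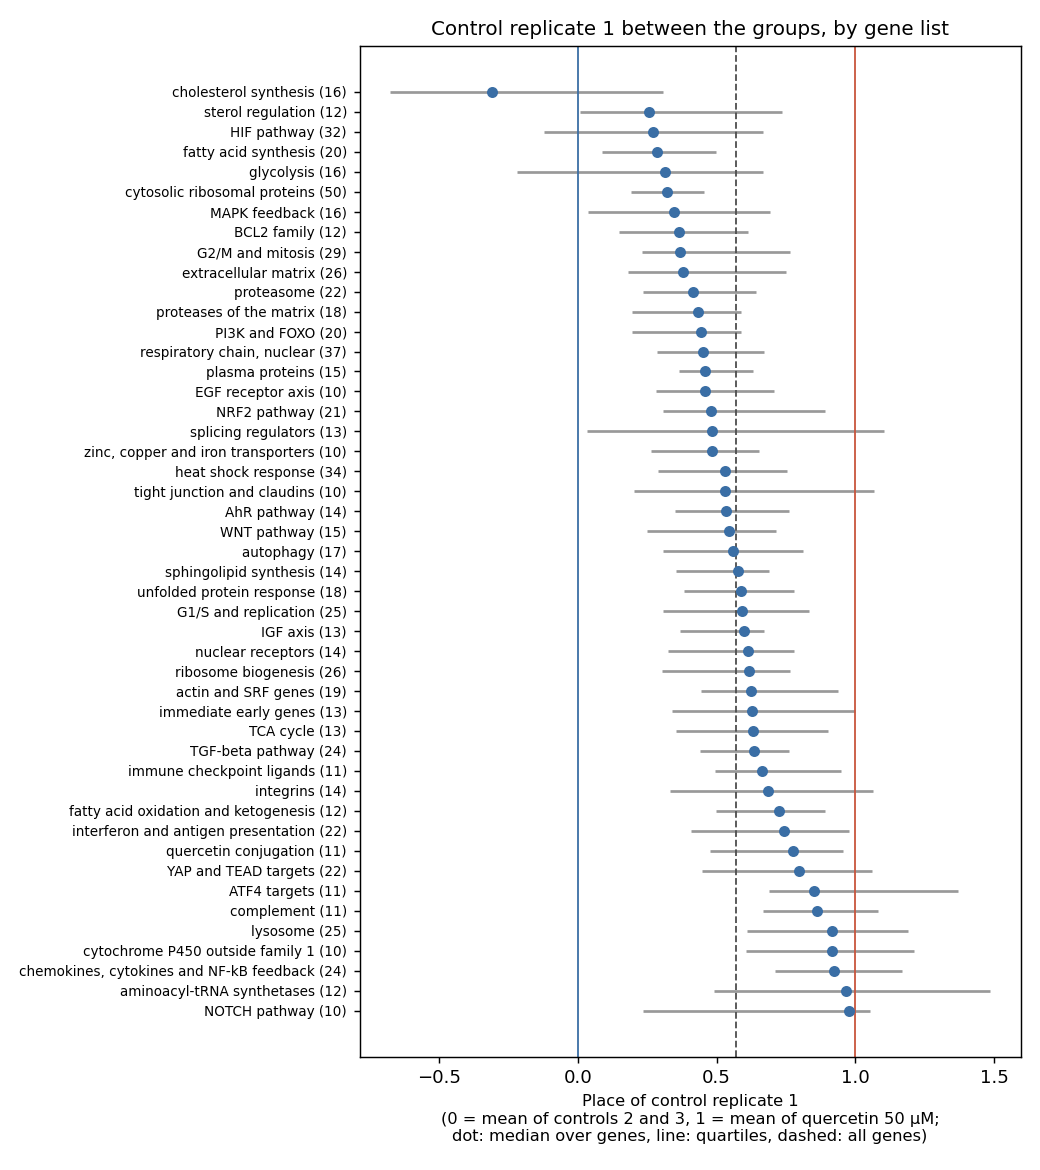
Place of control replicate 1 between the mean of controls 2 and 3 (0, blue line) and the mean of quercetin 50 µM (1, red line), for the reported lists with at least 10 genes called without it; dots are medians over genes and lines the quartiles. Cholesterol synthesis lies at -0.31 and aminoacyl-tRNA synthetases at 0.97, around the 0.57 of all genes (dashed).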

How the data were processed

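RNA-seq libraries of HCCLM3 cells were made by the submitters from oligo(dT)-selected RNA with a duplex-specific nuclease step, per the labels' protocols, whose text speaks of tissue. The submitters' processing notes name HISAT2 2.0.4, Bowtie2 2.2.5, RSEM 1.2.12 and the build GRCh38.p13, without their roles, and no source used here gives the strand setting of counting. A table of expected counts and TPM per gene was deposited by the authors, per the file headers, with 17492 genes, all of them mRNA genes. Only 27.04% of the expected counts were whole (within 1e-06), so they were rounded. TPM was used only for levels of markers. Of the table's per-sample columns 24 were not used, and mitochondrial-genome genes and long non-coding RNAs were not analysed here. Groups followed the labels, 3 libraries each, with 20061136 to 21436328 counts per library.

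Genes with low counts were removed with edgeR's filterByExpr (minimum count 10, total 15, proportion 0.7), which left 12609 genes and removed 4883 with 0.0469% of counts. Libraries were scaled by TMM and fitted with edgeR 4.0.16 (glmQLFit and glmQLFTest, R 4.3.3) on the 6 libraries, with Benjamini-Hochberg adjustment over all genes and a threshold of 0.05. Standard errors were taken as the absolute log2 difference divided by the square root of F, and their median was 0.0969. The spread between replicates corresponded to a biological coefficient of variation of 9.33%. A simulation drew independent counts around 1 mean per gene for 12505 genes, of which 98 were changed 1.5-fold and 99 were changed 2-fold. The test recovered 68.4% and 90.9% of these, with 9 unchanged genes called. The simulation held no shifted library and few changed genes, whereas 33.9% of real genes were called and control replicate 1 stood apart. These rates therefore do not describe the power or the false calls of the real comparison.

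Alternatives were RLE size factors, no filter, at least 1 CPM in 3 libraries, a replicate block, DESeq2 1.42.0, limma 3.58.1 (voom with quality weights) and the omission of each library in turn. A loess fit (span 0.5) that removed the trend with transcript length (the longest protein-coding transcript per symbol in GENCODE, known for 97.6% of tested genes) was added after seeing the data. Deviations from the group means of same-numbered libraries correlated at -0.12, -0.08 and -0.056, so no pairing by replicate number was seen. With 3 libraries per group and control replicate 1 apart from the other controls, these values cannot exclude a pairing. The labels do not state one.

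The genes named are fixed regulators and quercetin-conjugating genes, the 15 largest rises and falls with at least 5 CPM and no overlap, the 5 most abundant genes each way, and, for the 24 lists with the largest share called, up to 4 members, their partners and members of small families. Genes named outside this rule, from other lists or beside these, were chosen after their values were seen. A few genes and 1 list covered by these choices are left out here. The comparison and the gene lists were chosen with earlier results of these data known. Positions are those of the authors' table, and promoter sequences are from RefSeq on GRCh38.p14.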

Additional observations from a re-analysis of the deposited data

How the results depend on the processing

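The number of calls depended on control replicate 1. Leaving out 1 library at a time gave 656 to 3726 genes higher and 881 to 3758 lower, the lowest without quercetin replicate 3 and the highest without control replicate 1. Voom with quality weights, in which control replicate 1 had a weight of 0.164 and the others 1.26 to 1.62, gave 3753 higher and 3781 lower. RLE size factors (2015 and 2234), no filter (1887 and 2106), at least 1 CPM (2010 and 2221), DESeq2 (1916 and 2208) and the length trend removed (1900 and 2083; chosen after seeing the data) stayed within 1.5 times of 1996 and 2273. With the replicate number as a block, 1574 genes were higher and 1749 lower. The labels do not tell whether that number pairs the samples. No gene called here was called in the opposite direction under these alternatives.

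Of 239 named genes that passed, 143 passed in all 6 omissions, and 238, 220, 237, 218, 234 and 228 passed under RLE, no filter, 1 CPM, the block, DESeq2 and the length correction. Of 41 that did not pass, 25 passed without control replicate 1 and 27 under voom with weights. The sign changed only for genes near 0. NQO1 was -0.00082 with the length trend removed, -0.020 under voom with weights and -0.025 (without control replicate 1) to 0.082 over the omissions. EGLN1 was -0.045 under voom with weights and -0.056 (without control replicate 1) to 0.12 over the omissions, with -0.023 without quercetin replicate 1. CA12 was 0.071 with the length trend removed and -0.083 to 0.011 over the omissions, with 0.00052 without control replicate 2. TFEB was -0.17 to 0.053 over the omissions, and IGF1R 0.052 with the length trend removed. The cause was not tested. Depth was alike in all libraries, and genes under about 1 CPM in most controls rest on few counts there. These include ALB, SERPINA1, IGF2, IGFBP5, CA9, NDUFA4L2, SOX18 and PROC, so their folds are uncertain. The smallest groups of genes, such as the fibrinogen chains, rest on 3 genes.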

Other observations

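Some gene groups outside the results given so far also held calls. Of 4 tested metallothioneins, small proteins that bind zinc and copper, 3 fell and none rose (median log2 difference -0.39; without control replicate 1, 3 lower and 1 higher). Among genes of YAP and TEAD, factors that respond to cell tension and density, 7 of 27 fell and 3 rose (median -0.27), and without control replicate 1, 17 fell and 5 rose. WNT pathway genes rose in 7 of 22 and fell in 3 (median 0.08; without control replicate 1, 11 higher and 5 lower of 23 tested). Of 14 glutathione transferases 3 rose and none fell, and of 8 pentose phosphate enzymes 3 rose and none fell (medians 0.18 and 0.12), and without control replicate 1 these groups had 7 and 5 higher and none lower. Of 10 NOTCH genes 3 fell and none rose (median -0.23), and without control replicate 1, 6 were lower and 4 higher. Over all tested genes 15.8% were higher and 18.0% lower (29.3% and 29.6% without control replicate 1), and no test compares these groups with all genes.

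Among the 508 genes that differed at least 2-fold without control replicate 1, that library lay between the other controls and quercetin in 92.1%. It was within 0.25 of the other controls, on the scale on which quercetin is 1, in 47 of them and at 0.75 or beyond in 119. Its log2 CPM correlated across genes at 0.985 with both other controls and at 0.986 to 0.988 with the quercetin libraries; genes are not independent replicates. No explanation is given by the labels.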
